A study of Danio rerio with 3 samples.

Results

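This account covers 9 genes of the Wnt pathway in zebrafish (Danio rerio) embryos given a blocker of nuclear pores before the onset of zygotic transcription. The extent of the block was not measured here. The genes are the ligand genes wnt8a and wnt11, the secreted inhibitor gene dkk1b, the destruction complex genes axin1 and axin2, the nuclear effector genes lef1 and tcf7l1a, and the target genes sp5a and sp5l. Each was found by its symbol in the deposited table, and all 9 were present among the 25386 genes listed. The choice of genes was made with earlier results of these data known, so their counts describe these genes and do not sample the pathway.

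Poly(A) RNA came from whole wild-type embryos freed of their chorions, in 3 libraries with 1 library per group. The first group received 0.65 ng of wheat germ agglutinin (WGA) in 1 nl, injected in the yolk of 1-cell embryos, and was collected at 5 hours post fertilisation (hpf), when the embryos had a dome-like shape. The second group had the same injection and was collected at 4.3 hpf. The third group, the control, was wild type at 4.3 hpf, the dome stage, and had no treatment. WGA is a lectin that binds sugar-modified nucleoporins and hinders passage across the pore. The labels give no mock injection and no number of embryos per library, so an effect of the injection itself cannot be told apart from that of WGA. The control is matched in time to the 4.3 hpf WGA library and in shape to the 5 hpf WGA library, and both comparisons with it share its 1 library.

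Wnt proteins are secreted signals. In the canonical branch a Wnt bound to a Frizzled receptor and an LRP5 or LRP6 co-receptor disables a cytoplasmic complex built on Axin, so that β-catenin is spared from destruction, enters the nucleus and joins Tcf and Lef proteins on target genes. In the zebrafish blastula, maternal β-catenin sets up the dorsal organizer, and Wnt8 made later at the margin by the embryo's own genome acts on ventral and posterior fates. Wnt11 acts mainly through a branch without β-catenin that polarises cells for the movements of gastrulation.

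The values are FPKM, that is, fragments scaled to transcript length and to the mapped total of the library, so levels can be set side by side between genes on a per-length scale. Ratios are log2 ratios of (FPKM + 1), and folds are taken from them unless called a plain ratio. The added 1 makes folds of low genes too small. A gene counts as measured in a pair if either of its libraries has FPKM 1 or more, and as lower or higher if it differs by at least 2-fold. Each group is a single library, so no value has a replicate error, no difference has a replicate check and no test could be run. The WGA libraries differ in age and share the injection, so they cannot stand in for replicates or gauge the spread against the control. Between them, 0.356% of 13478 genes were lower and 0.772% were higher by 2-fold or more at 5 hpf.

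The library sums were 411178 FPKM in WGA embryos at 5 hpf, 401114 FPKM in WGA embryos at 4.3 hpf and 430459 FPKM in the control. All markers of blastula cells, the enveloping layer, the yolk syncytial layer, primordial germ cells and oocytes that were looked up were above 0 in all 3 libraries. The 5 enveloping layer markers summed to 119 FPKM in WGA at 5 hpf, 77.0 FPKM in WGA at 4.3 hpf and 402 FPKM in the control. The 5 yolk syncytial layer markers summed to 186, 92.0 and 626 FPKM in the same order. Of the enveloping layer markers, krt4, krt5 and krt92 were higher in WGA at 5 hpf than in WGA at 4.3 hpf. klf17 and grhl3 were lower there, at 23.62 against 32.77 FPKM and 26.3 against 27.9 FPKM. The 4 oocyte markers summed to 508 FPKM in WGA at 5 hpf, 552 FPKM in WGA at 4.3 hpf and 167 FPKM in the control. In each library buc was the largest part, while zp3b ran the other way at 22.78, 28.57 and 36.54 FPKM. btg4 was at 108.18 FPKM in WGA at 4.3 hpf but near the control at 5 hpf, at 48.91 against 47.92 FPKM. The germ cell and blastula sums differed less. The 4 germ cell markers were at 231, 240 and 209 FPKM and the 4 blastula markers at 1703, 1669 and 1953 FPKM in that order. In each comparison with the control, however, 1 blastula marker was lower and 1 higher by 2-fold or more. These were vox, at 23.72, 17.89 and 84.67 FPKM, and sox19b, at 291.64, 292.6 and 56.6 FPKM. The germ cell marker tdrd7a was at 61.38, 71.71 and 33.36 FPKM. The enveloping layer, yolk syncytial layer and oocyte sums move with the results below, and their part in them was not tested. In whole embryos, fewer cells of a type and less RNA per cell cannot be told apart.

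The 9 genes fell into 3 patterns across the libraries. wnt11, dkk1b, sp5a and sp5l were lowest in WGA at 4.3 hpf, next in WGA at 5 hpf and highest in the control. wnt8a was lowest in WGA at 5 hpf and also highest in the control. axin1, axin2, lef1 and tcf7l1a had the opposite order from the first pattern, with the highest level in WGA at 4.3 hpf and the lowest in the control. Over all 14349 genes that reached FPKM 1 in any library, the first order was held by 24.0%, that of wnt8a by 17.3% and the last by 29.5%. All 3 orders are therefore common in the table.

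**Figure D1:**
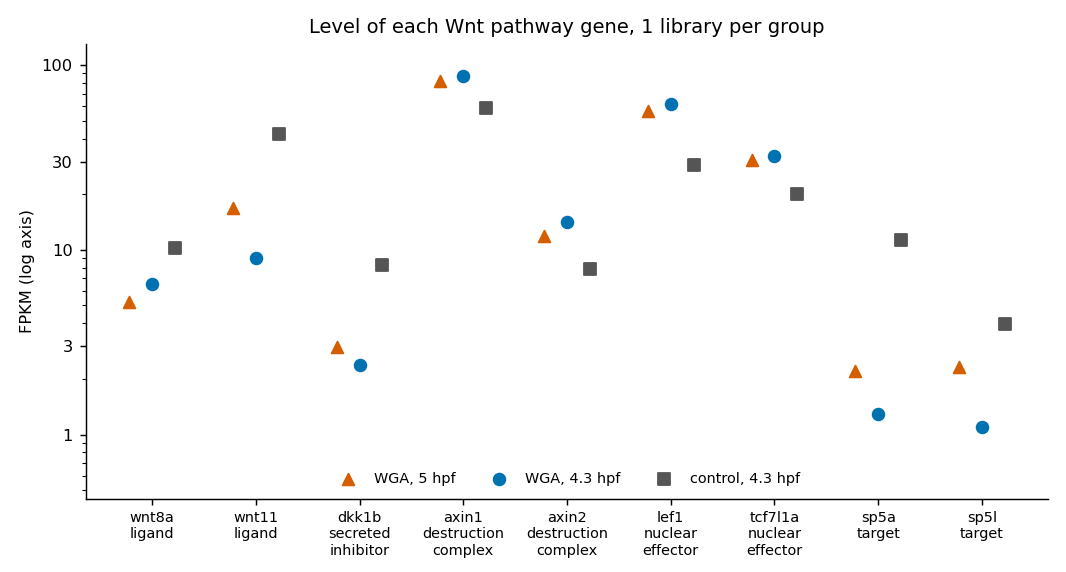
FPKM on a log axis for each of the 9 genes, grouped by role, with 1 point per library (WGA at 5 hpf, WGA at 4.3 hpf, control at 4.3 hpf, from left to right). The ligand, inhibitor and target genes have their highest point in the control, at 3.97 to 42.37 FPKM, while the Axin, Lef and Tcf genes have their lowest point there, at 7.84 to 58.53 FPKM.

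At the matched time of 4.3 hpf, 4 of the 9 genes were lower in WGA embryos by 2-fold or more, namely wnt11, dkk1b, sp5a and sp5l, and 1 was higher, lef1. Over the 14263 genes measured in this pair, 8.97% were lower and 7.21% were higher by 2-fold or more. At the matched shape, WGA at 5 hpf against the control, 3 of the 9 were lower (wnt11, dkk1b and sp5a) and 0 were higher, where 7.92% of 14158 genes were lower and 5.30% were higher. Between WGA at 5 hpf and WGA at 4.3 hpf, 0 of the 9 differed by 2-fold. Of the 9 genes, 5 lay below the control and 4 above it in both comparisons, and these were the same genes. The median log2 ratio of the 9 was -0.57 at the matched time and -0.58 at the matched shape, beside 0.03 and -0.02 for all genes measured. The members went both ways, so that median does not stand for a typical member, and with a filter at FPKM 5, which leaves out sp5l, it was -0.0018 at the matched time and -0.19 at the matched shape. Of the genes counted as lower or higher over the whole table, 55.5% were lower at the matched time and 59.9% at the matched shape. With the filter at FPKM 5 these shares were 45.5% and 51.6%, so the excess of lower genes at the matched time was not kept. Scaling to 80 ribosomal protein genes made these shares 16.4% and 34.1%, and it moved the median of all genes to 0.67 and 0.31, against which ratios under that scaling have to be read. In the pair of WGA libraries 31.6% of the genes counted were lower at 5 hpf, against 82.9% under ribosomal protein scaling and 42.3% under TPM.

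**Figure D2:**
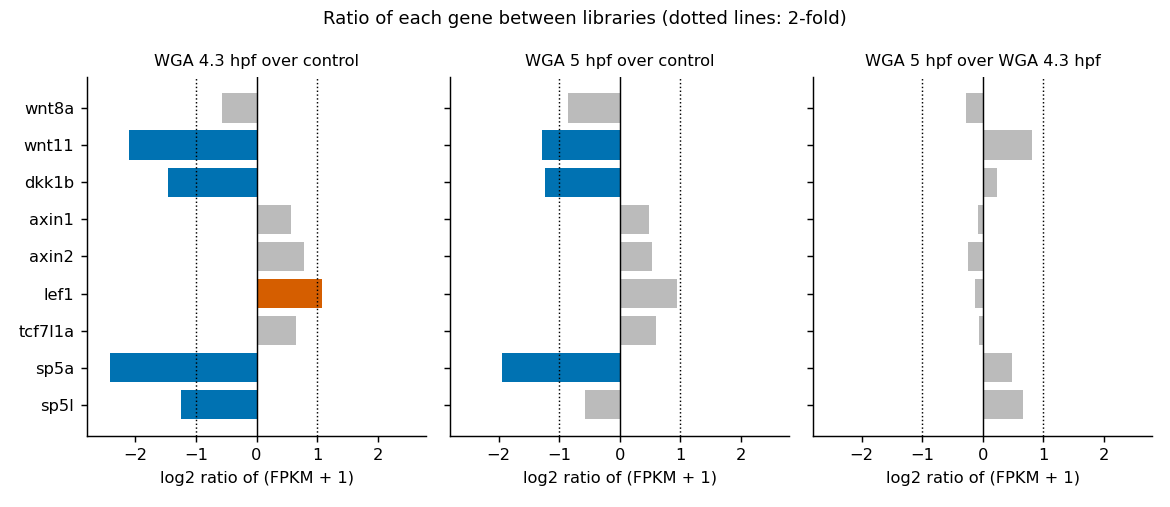
Bars give the log2 ratio of (FPKM + 1) of each gene in 3 comparisons, WGA at 4.3 hpf over control, WGA at 5 hpf over control and WGA at 5 hpf over WGA at 4.3 hpf, with dotted lines at 2-fold. Bars past a line are coloured (blue lower, orange higher): 4 lower and 1 higher in the first panel, 3 lower in the second and 0 in the third.

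The ligand genes differed from each other in level and in size of change. wnt11 (NCBI Gene 791595) had the highest value of any single Wnt record in every library, at 16.74 FPKM in WGA embryos at 5 hpf, 9.06 FPKM in WGA embryos at 4.3 hpf and 42.37 FPKM in the control. This record is the silberblick gene, now named wnt11f2, which is needed for the extension of the body axis at gastrulation. It was 4.31-fold lower than control at the matched time (log2 ratio -2.11) and 2.44-fold lower at the matched shape (log2 ratio -1.29). Only 2.03% of genes measured had a ratio as low at the matched time and 5.03% at the matched shape. Under ribosomal protein scaling the ratio at the matched shape was -0.93, within 2-fold. Between the WGA libraries wnt11 was 1.76-fold higher at 5 hpf, which placed it among the 1.11% of genes with the highest ratio there, although it stayed short of 2-fold. The related gene wnt11r (30283), which current annotation calls wnt11, was near 0, at 0.03 FPKM in WGA at 5 hpf, 0.13 FPKM in WGA at 4.3 hpf and 0.18 FPKM in the control.

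wnt8a (30122), the margin signal for ventral and posterior fates, was at 5.21 FPKM in WGA embryos at 5 hpf, 6.55 FPKM in WGA embryos at 4.3 hpf and 10.19 FPKM in the control. Its log2 ratio was -0.57 at the matched time (1.48-fold lower) and -0.85 at the matched shape (1.80-fold lower), neither of which reached 2-fold. Scaling to ribosomal protein genes turned the first of these to 0.084. Of the 5 genes below the control, wnt8a was the only one with a lower level in the later WGA library, at a log2 ratio of -0.28 between WGA at 5 hpf and WGA at 4.3 hpf. Ratios as low as that were found in 18.2% of the genes of that pair.

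The wnt8a value may not stand for the whole locus. In zebrafish wnt8a lies in a locus with a pair of open reading frames, and the table carries a second record, wnt8-2 (553976), with exactly the same value in every library. Current annotation gives both records the same genomic interval. They were the only 2 of the 12445 genes with FPKM 1 or more in all 3 libraries that shared all 3 values with another gene. Summed over both records, the locus stood at 10.4 FPKM in WGA at 5 hpf, 13.1 FPKM in WGA at 4.3 hpf and 20.4 FPKM in the control. The ratios hardly moved, with log2 ratios of the sum of -0.60 at the matched time and -0.90 at the matched shape. How the counting shared reads between the records was not tested, and if it gave the same reads to both, the sum counts them more than once.

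Other Wnt genes were close to silent. The table has 23 rows whose symbol is wnt followed by a number, and 3 of them reached FPKM 1 in any library, namely wnt11, wnt8a and wnt8-2. Among the other 20 the highest value was 0.82 FPKM, for wnt5b in the control, and 5 were listed at 0 in all 3 libraries. wnt5b, a second ligand of gastrulation movements, was at 0.45 FPKM in WGA at 5 hpf and 0.31 FPKM in WGA at 4.3 hpf.

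Most measured genes for the release of Wnts lay within 2-fold of the control. The pathway lists used from here on were written with earlier results known, and 11 genes stand in more than 1 list. Counts in every list are to be read beside the shares over all genes. At the matched time these were 8.97% lower and 7.21% higher, and at the matched shape 7.92% lower and 5.30% higher. Counts under ribosomal protein scaling need the counts over all genes under that scaling beside them. Those were 819 lower and 4187 higher of 14898 genes at the matched time. At the matched shape they were 825 lower and 1593 higher of 14472 genes. In a list of 10 genes of Wnt secretion, 6 were measured, and at the matched time 1 was lower and 1 higher by 2-fold or more (median log2 ratio -0.11, above 0 with TPM or ribosomal protein scaling). The carrier gene wls, whose product escorts Wnts to the cell surface, was at 79.12 FPKM in WGA at 5 hpf, 70.64 FPKM in WGA at 4.3 hpf and 79.62 FPKM in the control. The retromer gene vps26a, which helps to recycle that carrier, was 2.54-fold higher at the matched time and 2.40-fold higher at the matched shape. Its partner gene vps35 had log2 ratios of 0.89 and 0.95. With ribosomal protein scaling vps35 passed 2-fold at the matched time (1.61) and at the matched shape (1.32), and with TPM at the matched shape only (1.03). The gene for the Wnt-inactivating enzyme Notum, notum1a, was at 4.34 FPKM in WGA at 5 hpf, 0.95 FPKM in WGA at 4.3 hpf and 5.48 FPKM in the control. It was 3.32-fold lower at the matched time, whereas at the matched shape its log2 ratio was -0.28, or 0.032 under ribosomal protein scaling. Between the WGA libraries notum1a was 2-fold or more higher at 5 hpf, at a log2 ratio of 1.45.

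The secreted inhibitor gene dkk1b (30197) encodes a Dickkopf protein that blocks the LRP5 and LRP6 co-receptors and, made on the dorsal side, promotes head formation. It was at 2.97 FPKM in WGA embryos at 5 hpf, 2.38 FPKM in WGA embryos at 4.3 hpf and 8.29 FPKM in the control. Both WGA libraries were below the control and close to each other. dkk1b was 2.75-fold lower at the matched time (log2 ratio -1.46) and 2.34-fold lower at the matched shape (log2 ratio -1.23), with 4.97% and 5.57% of genes as low. These ratios were within 2-fold under ribosomal protein scaling (-0.91 and -0.94) and with a pseudocount of 5 (-0.85 and -0.74). In the list of 16 secreted inhibitors 4 genes were measured at the matched time, of which 3 were lower and 0 higher (median -1.32). Besides dkk1b these were sfrp1a, a decoy receptor gene, at 3.03-fold lower, and szl at 2.27-fold lower, whose product is related to the Sfrp proteins but is known for its action on the BMP pathway. szl was at 0.07 FPKM in WGA at 5 hpf, 0.04 FPKM in WGA at 4.3 hpf and 1.36 FPKM in the control, so it counted as measured only through the control. Ribosomal protein scaling put sfrp1a at -0.91 at the matched time and left 1 of 4 lower. At the matched shape the same 3 genes were lower, with sfrp1a at a log2 ratio of -1.80, and they were also the only ones measured there. With TPM, under which more low genes counted as measured, 3 of 6 were lower.

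Among receptors the genes split by member. In a list of 21 Frizzled, LRP and other receptor genes, 16 were measured. At the matched time 4 were lower, 1 was higher and 11 lay within 2-fold (median -0.04, of either sign across scalings). fzd7a was at 9.38 FPKM in WGA at 5 hpf, 10.58 FPKM in WGA at 4.3 hpf and 51.52 FPKM in the control, 4.54-fold lower at the matched time. Its paralogue fzd7b was at 69.35, 73.10 and 84.10 FPKM in the same order, with log2 ratios of -0.20 at the matched time and -0.27 at the matched shape that turned positive under ribosomal protein scaling. The other receptor genes lower at the matched time were fzd8a (3.33-fold), fzd4 (2.61-fold) and fzd9b (2.51-fold). At the matched shape fzd6 joined them with a log2 ratio of -1.07. Levels of fzd4 were 0.69 FPKM in WGA at 5 hpf, 0.84 FPKM in WGA at 4.3 hpf and 3.81 FPKM in the control. It thus counted as measured only through the control. fzd9b was also low, at 1.03, 1.25 and 4.64 FPKM in the same order. Under ribosomal protein scaling fzd9b was at -0.88 at the matched time and fzd6 at -0.77 at the matched shape, within 2-fold. The list then had 3 lower and 3 higher at the matched time, beside 819 lower and 4187 higher of all 14898 genes. The receptor gene that was higher was fzd5, 3.33-fold at the matched time and 2.27-fold at the matched shape. The co-receptor gene lrp6 had log2 ratios of 0.38 and 0.28, the first of which was 1.06 under ribosomal protein scaling.

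Among receptor turnover genes was znrf3, which had the highest ratio of any measured gene in the 10 pathway lists in both comparisons with the control. It encodes a ubiquitin ligase that removes Frizzled receptors from the cell surface and was at 7.16 FPKM in WGA at 5 hpf, 10.23 FPKM in WGA at 4.3 hpf and 1.00 FPKM in the control. It was 5.62-fold higher at the matched time and 4.08-fold higher at the matched shape. The R-spondin gene rspo1, whose product counters that ligase, was 2.08-fold and 2.22-fold higher at lower levels, at 3.0 FPKM in WGA at 5 hpf, 2.74 FPKM in WGA at 4.3 hpf and 0.80 FPKM in the control. It counted as measured only through the WGA libraries, where it was high. In this list of 9 genes 3 were measured in both comparisons with the control, and 2 were higher and 0 lower in each. Over all genes measured, 7.21% were higher at the matched time and 5.30% at the matched shape.

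The Axin genes encode the scaffold of the destruction complex, and axin2 is in addition a widely used feedback target of canonical signalling. axin1 (57931), whose loss in the masterblind mutant turns forebrain and eyes into more posterior tissue, was the highest of the 9 genes. It was at 81.97 FPKM in WGA embryos at 5 hpf, 87.01 FPKM in WGA embryos at 4.3 hpf and 58.53 FPKM in the control. Its log2 ratios were 0.56 at the matched time and 0.48 at the matched shape. axin2 (58080) was lower in level, at 11.85 FPKM in WGA at 5 hpf, 14.22 FPKM in WGA at 4.3 hpf and 7.84 FPKM in the control, with log2 ratios of 0.78 and 0.54. Neither gene reached 2-fold, but under ribosomal protein scaling both passed it at the matched time, at 1.29 for axin1 and 1.48 for axin2. The genes held nearly the same split of their summed FPKM in every library, with axin1 at 87.4% in WGA at 5 hpf, 86.0% in WGA at 4.3 hpf and 88.2% in the control.

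Most genes of the cytoplasmic machinery lay within 2-fold of the control. In a list of 32 Dishevelled and destruction complex genes that includes axin1 and axin2, 21 were measured at the matched time, and 1 was lower, 1 higher and 19 within 2-fold (median 0.42). At the matched shape 23 were measured, again with 1 lower and 1 higher (median 0.14). Without the Axin genes the medians were 0.34 over 19 genes and 0.11 over 21 genes. Ribosomal protein scaling gave 12 of 23 higher and 0 lower at the matched time, with a median of 1.05. Over all 14898 genes, that scaling gave 4187 higher and 819 lower there, with a median of 0.67. The tankyrase gene tnksb, whose product marks Axin for degradation, was 2.0-fold higher at the matched time and 2.12-fold higher at the matched shape, although at the matched time it was short of 2-fold under median-of-ratios scaling. The ubiquitin ligase gene siah1 was 2.59-fold lower at the matched time and had a log2 ratio of -1.27 at the matched shape, values of -0.71 and -0.93 under ribosomal protein scaling. The β-catenin genes were the most abundant here. ctnnb1 was at 230.90 FPKM in WGA at 5 hpf, 199.06 FPKM in WGA at 4.3 hpf and 291.06 FPKM in the control, and ctnnb2 was at 288.44, 237.89 and 312.33 FPKM in that order. Their log2 ratios at the matched time were -0.55 for ctnnb1 and -0.39 for ctnnb2, and both turned positive under ribosomal protein scaling.

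The nuclear effector lef1 (30701) encodes an HMG-box protein that activates targets when bound to β-catenin, and it is known to be supplied to the zebrafish egg by the mother as well as made later. It was at 56.47 FPKM in WGA embryos at 5 hpf, 61.71 FPKM in WGA embryos at 4.3 hpf and 28.82 FPKM in the control. Both WGA libraries were well above the control and near each other. lef1 was 2.10-fold higher at the matched time (log2 ratio 1.07) and 1.93-fold higher at the matched shape (log2 ratio 0.95), with 6.01% and 5.92% of genes as high. The 2-fold line lies between these values. Under median-of-ratios scaling the first was 0.99, and under TPM the second was 1.03. Ribosomal protein scaling put lef1 at 1.79 and 1.315, past 2-fold in both comparisons. With a pseudocount of 5 it was within 2-fold in both, at 0.98 and 0.86.

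tcf7l1a (30523) encodes a related protein that acts mostly as a repressor and is the gene of the headless mutant, which lacks anterior head structures. It was at 30.71 FPKM in WGA embryos at 5 hpf, 32.11 FPKM in WGA embryos at 4.3 hpf and 20.02 FPKM in the control. Its log2 ratios were 0.66 at the matched time and 0.59 at the matched shape, short of 2-fold, and under ribosomal protein scaling it passed 2-fold at the matched time, at 1.37. The paralogue tcf7l1b followed the same order, at 22.85, 25.19 and 14.38 FPKM. Together with tcf7 and tcf7l2, which were at 1.56 FPKM or less, these genes make up the Tcf and Lef family. Their summed FPKM was 111 in WGA at 5 hpf, 120 in WGA at 4.3 hpf and 64.8 in the control, a log2 ratio of 0.88 at the matched time and 0.77 at the matched shape. lef1 made up 50.7% of that sum in WGA at 5 hpf, 51.5% in WGA at 4.3 hpf and 44.5% in the control. The tcf7l1a share was 27.6%, 26.8% and 30.9% in the same order. The lead of lef1 over tcf7l1a was thus present in every library.

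In the full list of 26 nuclear factors and cofactors, 24 were measured in each comparison with the control. At the matched time 2 were higher, lef1 and the Groucho-type corepressor gene tle3a, and 0 were lower (median 0.28). For tle3a alone the ratio passed 2-fold at the matched shape, where 0 were lower (median 0.20). tle3a was at 85.03 FPKM in WGA at 5 hpf, 90.05 FPKM in WGA at 4.3 hpf and 39.17 FPKM in the control, 2.27-fold higher at the matched time. Most of these genes thus lay within 2-fold of the control, but ribosomal protein scaling gave 12 of 25 higher at the matched time, with a median of 0.96. Over all 14898 genes, that scaling gave 4187 higher there, with a median of 0.67.

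The target genes sp5a and sp5l encode zinc-finger factors of the Sp family that act downstream of Wnt8 in the zebrafish margin. sp5a (353154) was at 2.22 FPKM in WGA embryos at 5 hpf, 1.30 FPKM in WGA embryos at 4.3 hpf and 11.35 FPKM in the control. It had the lowest ratio of the 9 genes in both comparisons with the control, although with a pseudocount of 5 wnt11 was lower at the matched time (-1.75 against -1.38). sp5a was 5.37-fold lower at the matched time (log2 ratio -2.42) and 3.84-fold lower at the matched shape (log2 ratio -1.94). The plain ratio of FPKM was larger, 8.73-fold and 5.11-fold, because the pseudocount weighs on values this low. Of the genes measured, 1.04% had a ratio as low at the matched time and 1.79% at the matched shape.

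sp5l (324261) was at 2.33 FPKM in WGA embryos at 5 hpf, 1.10 FPKM in WGA embryos at 4.3 hpf and 3.97 FPKM in the control. It was 2.37-fold lower at the matched time (log2 ratio -1.24), but at the matched shape its log2 ratio was -0.58, within 2-fold. The ratio at the matched time also came within 2-fold under ribosomal protein scaling (-0.82) and with a pseudocount of 5 (-0.56). Its log2 ratio between WGA at 5 hpf and WGA at 4.3 hpf was 0.67, and 1.71% of genes were as high. In the WGA libraries the levels of sp5a and sp5l were nearly equal, with sp5a at 48.8% of their summed FPKM at 5 hpf and 54.2% at 4.3 hpf. In the control sp5a was the higher of the pair and made up 74.1% of the sum. These shares rest on values near 1 or 2 FPKM, whose counting error cannot be given from FPKM.

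**Figure D3:**
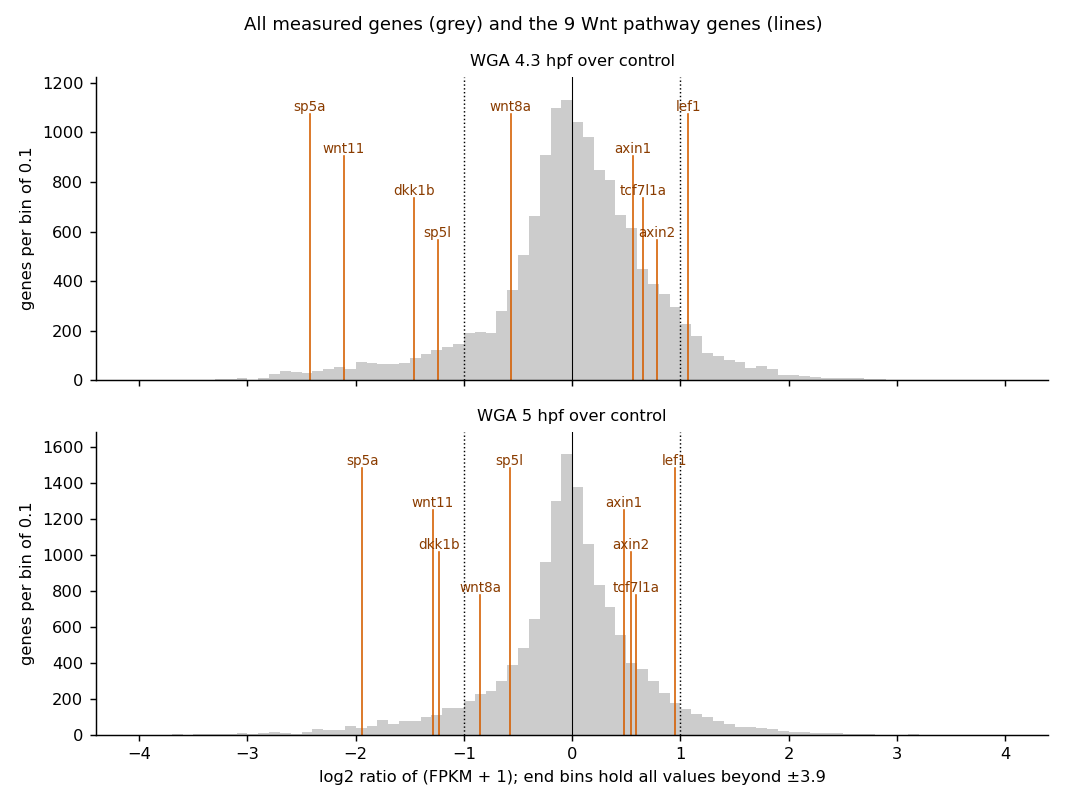
Grey bars count all measured genes in bins of 0.1 log2 ratio, for WGA at 4.3 hpf over control (top) and WGA at 5 hpf over control (bottom), with dotted lines at 2-fold and a line for each of the 9 genes (line heights carry no value). sp5a, wnt11 and dkk1b stand in the left tail of both panels, and lef1 stands by the upper 2-fold line at 1.07 and 0.95.

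The wider set of Wnt8 targets contains genes named for ventral and posterior fates. Of a list of 34 such genes 20 were measured. At the matched time 13 were lower, 1 was higher and 6 lay within 2-fold (median -1.61). Over all genes measured there, 8.97% were lower and 7.21% higher. Without the members sp5a, sp5l, axin2 and lef1 the list had 11 of 16 lower and 0 higher (median -1.83). Among those 11, gbx1, znf703 and notum1a were at only 0.71, 0.67 and 0.95 FPKM in WGA at 4.3 hpf. They passed FPKM 1 in this pair through the control alone, at 7.82, 3.66 and 5.48 FPKM. The reverse held for gbx2, within 2-fold, at 1.52 FPKM in WGA at 4.3 hpf and 0.61 FPKM in the control. Lowest were the mesoderm T-box gene tbx16 (6.65-fold lower), ved, which encodes a ventral homeobox repressor (6.52-fold), and the cyclin gene ccnd1 (5.73-fold). The brachyury gene ta was at 8.95 FPKM in WGA at 5 hpf, 2.75 FPKM in WGA at 4.3 hpf and 18.67 FPKM in the control. At the matched shape 9 of 20 were lower and 0 higher (median -0.96), led by the midbrain gene her5 at a log2 ratio of -3.72. Ribosomal protein scaling gave 11 of 21 lower and 3 higher at the matched time (median -1.14). At the matched shape it gave 8 of 21 lower and 1 higher (median -0.66). Over all genes, that scaling gave 819 lower and 4187 higher of 14898 at the matched time. At the matched shape it gave 825 lower and 1593 higher of 14472. Genes that are called Wnt8 targets thus stood on both sides of the control, with axin2 and lef1 above it and sp5a, sp5l, ta and tbx16 below it.

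Between the WGA libraries 3 of 18 measured genes of the Wnt8 target list were higher by 2-fold or more at 5 hpf and 1 was lower. Over the 13478 genes measured in this pair, 0.772% were higher and 0.356% lower. Those higher were ta, ved and notum1a, at log2 ratios of 1.41, 1.16 and 1.45, and the gene that was lower was her5, at -1.73. In this pair the members sp5a and sp5l had log2 ratios of 0.49 and 0.67, and axin2 and lef1 had -0.24 and -0.13. The list median of 0.44 turned to -0.036 under ribosomal protein scaling, which gave 2 of 20 higher and 2 lower, with ved at 0.84 and the homeobox gene irx7 at -1.14. Over all 14415 genes in this pair, that scaling gave 80 higher and 387 lower, with a median of -0.37.

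Most measured genes listed as early dorsal candidates were also low. A list of 16 genes was written down as candidate dorsal targets of maternal β-catenin, with earlier results known. At the matched time 13 were measured, with 11 lower and 0 higher (median -1.61). Over all genes measured there, 8.97% were lower and 7.21% higher. nog1 was at 0.37 FPKM in WGA at 5 hpf, 0.52 FPKM in WGA at 4.3 hpf and 3.63 FPKM in the control. It counted as measured only through the control. Ribosomal protein scaling gave 8 of the list lower and 1 higher, dusp4, at the matched time, beside 819 lower and 4187 higher of all 14898 genes. Of 12 measured at the matched shape 9 were lower and 0 higher (median -1.67). The homeobox gene dharma, a direct target of maternal β-catenin, was at 1.68 FPKM in WGA at 5 hpf, 1.75 FPKM in WGA at 4.3 hpf and 6.82 FPKM in the control, 2.84-fold lower at the matched time. The BMP antagonist gene chd was 5.79-fold lower at the matched time and had a log2 ratio of -1.64 at the matched shape. The list also holds nnr and vgll4l, 9.48-fold and 6.70-fold lower at the matched time. For these, neither dorsal expression nor control by β-catenin is certain.

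The branch in which Wnt11 acts was mixed. In a list of 29 planar polarity genes 22 were measured, and 6 were lower, 1 higher and 15 within 2-fold in each comparison with the control. The medians were 0.01 and -0.06 and their sign changed with scaling. Besides wnt11, the lower genes at the matched time were rhoab (8.03-fold), prickle1b (4.85-fold) and dact1 (4.09-fold), with dact2 and rhoaa at log2 ratios of -1.37 and -1.96. RhoA proteins drive the actin changes of cell movement, Prickle is a core polarity protein, and Dact proteins bind Dishevelled. Core genes with high levels were near the control, such as vangl2, at 56.84 FPKM in WGA at 5 hpf, 58.36 FPKM in WGA at 4.3 hpf and 63.93 FPKM in the control, and ror2, at 65.55, 65.88 and 67.41 FPKM. The gene that was higher was prickle2a, at a log2 ratio of 1.49 at the matched time. Under ribosomal protein scaling 5 were lower and 5 higher at the matched time, beside 819 lower and 4187 higher of all 14898 genes.

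**Figure D4:**
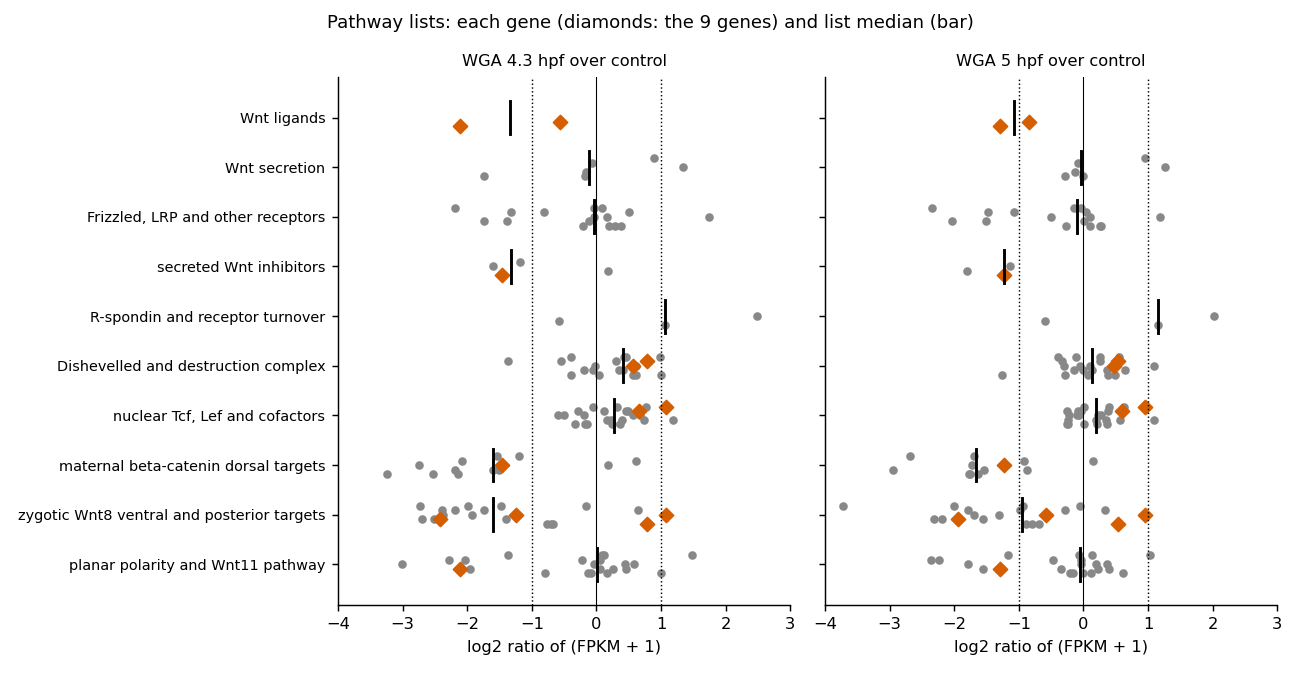
Each point is a measured gene of a pathway list, placed by its log2 ratio of (FPKM + 1) in WGA at 4.3 hpf over control (left) and WGA at 5 hpf over control (right), with diamonds for the 9 genes, a bar for the list median and dotted lines at 2-fold. The target lists and the secreted inhibitors (4 genes measured on the left, 3 on the right) have their medians at -0.96 or below in both panels. Ribosomal protein scaling, not drawn, raised the median of every list in both comparisons, to -0.66 for the Wnt8 targets at the matched shape. The destruction complex and nuclear lists have medians between 0.14 and 0.42. The ligand list (2 genes measured) has medians of -1.34 and -1.07, and the receptor turnover list (3 genes measured) of 1.06 and 1.15. A gene in more than 1 list is drawn in each.

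The order of FPKM levels among the 9 genes had axin1 at the top in every library and differed below it. In both WGA libraries the first 3 places were held by axin1, lef1 and tcf7l1a, followed by wnt11 and axin2 at 5 hpf and by axin2 and wnt11 at 4.3 hpf. In both of them wnt8a was next, ahead of dkk1b, sp5a and sp5l, which were at 2.97 FPKM or less. These places use the single wnt8a record, and the sum of both wnt8 records would stand above wnt11 in WGA at 4.3 hpf and above tcf7l1a and sp5a in the control. In the control the order from high to low was axin1, wnt11, lef1, tcf7l1a, sp5a, wnt8a, dkk1b, axin2 and sp5l. Without replicates it cannot be said which neighbours in these orders differ beyond their spread.

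**Figure D5:**
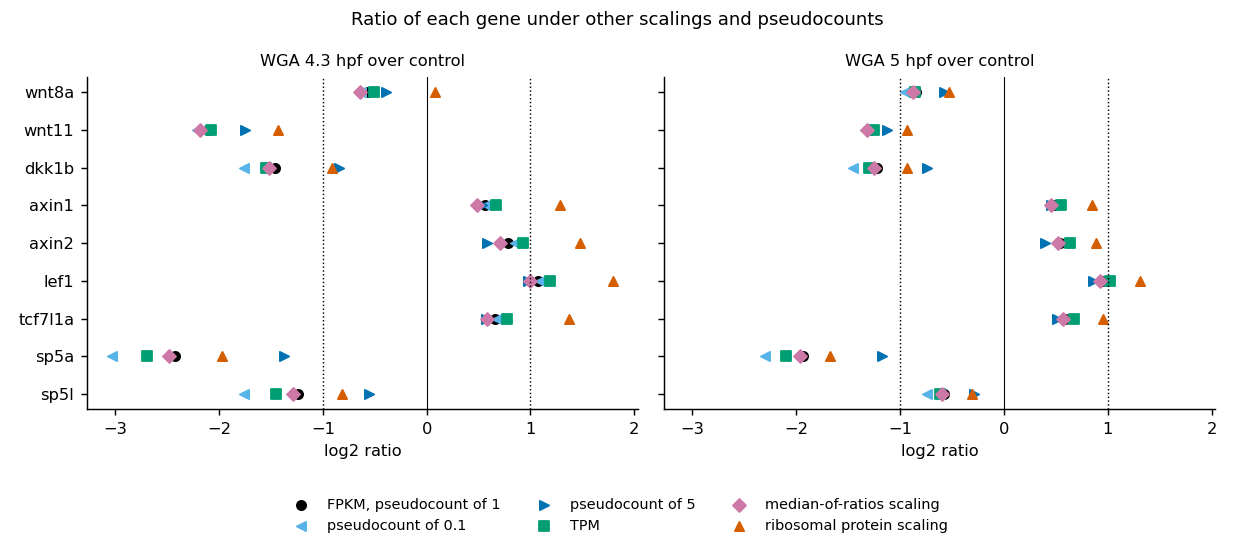
Points give the log2 ratio of each of the 9 genes under 6 settings (FPKM with pseudocounts of 1, 0.1 and 5, TPM, median-of-ratios and ribosomal protein scaling), for WGA at 4.3 hpf over control (left) and WGA at 5 hpf over control (right), with dotted lines at 2-fold. No gene changes sign except wnt8a in the left panel under ribosomal protein scaling, at 0.084, and that scaling places every gene to the right of its value as reported.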

How the data were processed

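The authors deposited 1 table of FPKM values, rounded to 2 decimals, for 25386 genes, each with a symbol and an NCBI Gene number. Trimmomatic 0.36, RSEM 1.2.8, Bowtie2 2.2.5 and build GRCz11 appear, with no role stated, per the submitters' processing notes. Which annotation was used is not stated there. The depth behind an FPKM value is unknown, so no interval for counting error can be given. For genes at FPKM of 0.1 to 1, ratios between 0.85 and 1.18 were searched for the one most frequent relative to its neighbours. It was 0.965 (WGA at 4.3 hpf over control) and 0.957 (WGA at 5 hpf over control), at 1.41 and 1.22 times the local mean. The search was limited to ratios near 1, so this is a weak guide to relative depth and not a measure of it. Columns were matched to libraries by name. Log2 ratios used a pseudocount of 1 and a minimum of FPKM 1 in either library, in Python 3.11.15 with pandas 2.3.3. The code for the calls was checked on simulated large changes in genes well above that minimum. That check does not bear on low genes or on calls near 2-fold. The members and the 10 lists (218 entries, 209 matched, 13 of these through RefSeq names of assembly GRCz12tu) were chosen with earlier results of these data known. Named genes are the 9 members, up to 4 genes per list and comparison with the largest absolute ratio, ctnnb1, ctnnb2, ta and dharma, with genes that complete a count of 5 or fewer, such as fzd6. wnt5b, wnt11r, wnt8-2, fzd7b, lrp6, tcf7l2, gbx1, gbx2, znf703, vangl2, ror2 and dact2 were named after their values were seen. Alternatives were pseudocounts of 0.1 and 5, no filter, a filter at FPKM 5, TPM made from the FPKM values, median-of-ratios scaling and scaling to ribosomal protein genes.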

Additional observations from a re-analysis of the deposited data

How the results depend on the processing

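Of 138 recomputed log2 ratios of single members under other pseudocounts and scalings and the summed wnt8 records, 121 kept their direction and their side of 2-fold, 9 moved within 2-fold, 6 moved past it and 2 changed sign. Those 2, under ribosomal protein scaling (80 genes), were wnt8a at the matched time (0.0842) and dkk1b between the WGA libraries (-0.0287). This scaling put the median of the members at the matched time at 0.0842, with 2 lower and 4 higher, and at the matched shape it gave 1 lower and 1 higher. With the filter at FPKM 5, which leaves out sp5l, the median of the members was -0.0018 at the matched time and -0.19 at the matched shape, against -0.57 and -0.58 as reported. A pseudocount of 5 left 2 lower and 0 higher at the matched time, and median-of-ratios scaling left 0 higher there. TPM gave 1 higher at the matched shape, and a pseudocount of 0.1 gave 1 higher between the WGA libraries, sp5l. Filters cannot change the ratio of a single gene. Over all genes, 1280 were lower and 1028 higher at the matched time as reported. Against these, a pseudocount of 5 gave 532 lower and 475 higher, and the filter at FPKM 5 gave 783 lower and 937 higher. TPM gave 1782 lower and 1620 higher, and ribosomal protein scaling gave 819 lower and 4187 higher. Settings with smaller shifts are left out in each comparison. At the matched shape 1122 were lower and 751 higher as reported. There a pseudocount of 0.1 gave 1696 lower, a pseudocount of 5 gave 442 lower and 370 higher, the filter at FPKM 5 gave 723 lower, and ribosomal protein scaling gave 1593 higher. Between the WGA libraries 48 were lower and 104 higher at 5 hpf as reported. A pseudocount of 0.1 gave 158 lower and 207 higher, and a pseudocount of 5 gave 6 lower and 18 higher. The filter at FPKM 5 gave 36 lower and 49 higher, TPM gave 140 lower and 191 higher, and ribosomal protein scaling gave 387 lower and 80 higher. Summing the wnt8a and wnt8-2 records was chosen after the data were seen and changed no call of that gene. The cause of these shifts was not tested. No paired analysis was possible because each group had 1 library.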
